A study of Homo sapiens with 16 samples.

Results

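MDM2, the ubiquitin ligase that marks p53 for destruction, and 8 genes known as targets of p53 were followed through a knockdown of the kinase YES1. The 9 genes were chosen by name: MDM2, BTG2, ZMAT3, TP53INP1, TP53I3, FDXR, SESN1, RRM2B and XPC. All 9 were found by their gene identifier among the 58735 genes of the count tables, and all 9 passed the filter on low counts in every comparison. The study depleted YES1, a Src family kinase, in 2 triple-negative breast cancer cell lines and measured polyadenylated RNA by sequencing. The groups were MDA-MB-231 with siYES1, MDA-MB-231 with siNS, SUM159PT with siYES1 and SUM159PT with siNS, with 4 libraries each. siYES1 is an siRNA against YES1, and siNS is an siRNA against firefly luciferase, which human cells lack. All libraries came from unmodified lines transfected with Lipofectamine2000 and collected at 48 h, so the controls carried the transfection too. The design text calls the 4 libraries of a group technical replicates, so the p-values measure only the spread between these libraries.

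p53 is a transcription factor that is stabilised by DNA damage and other stress. It switches on genes for cell cycle arrest, DNA repair, redox control and cell death, and it switches on MDM2, which in turn degrades p53 and closes a feedback loop. p53 is often mutated in triple-negative breast cancer, and both lines are known to carry a mutated p53. Many of these genes also respond to regulators other than p53.

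The libraries held between 15680459 and 23451253 counts. YES1 itself stood at 12.7 to 14.5 CPM with siYES1 and 57.1 to 71.4 CPM with siNS in MDA-MB-231, and at 15.7 to 19.4 CPM with siYES1 and 99.7 to 151 CPM with siNS in SUM159PT. CPM are scaled counts over library size, the unit of every level here. The epithelial marker EPCAM was between 10.7 and 28.8 CPM in MDA-MB-231 and between 0.317 and 0.825 CPM in SUM159PT. The mesenchymal markers VIM and CD44 were at 413 CPM or more in every library, the estrogen receptor gene ESR1 had at most 25 counts, the progesterone receptor gene PGR at most 2 counts and the leukocyte marker PTPRC at most 16 counts. The receptor gene ERBB2 was not near 0, at 46.9 to 126 CPM. The epithelial marker CDH1 was at most 1.17 CPM and the endothelial marker PECAM1 at most 9.14 CPM. COL1A1, a fibroblast marker that mesenchymal lines also make, was at 18.3 to 49.6 CPM in MDA-MB-231 and 567 to 1782 CPM in SUM159PT. The descriptions of the second line abbreviate its name as S149, whereas its titles give SUM159PT, the name used here. One library stood apart: SUM159PT siNS replicate 1 had a score of 47.6 on the second principal component of its line, against -32.9 to -11.1 in the other siNS libraries, and each call that turned on it is given below with and without it.

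The DNA sequences near the starts of these genes are shown first because p53 acts through a known motif there. A p53 response element is a pair of half-sites of 10 bases each, and the internal promoter of MDM2 is known for such elements. RefSeq promoter windows of 300 bases (250 before and 50 after a transcription start, GRCh38.p14) were available for 7 of the 9 genes, with 14 windows in all. Each was searched for 2 adjoining half-sites with at most 3 mismatches over 20 bases, keeping the core C and G of both half-sites. A pair in which a half-site lacks the core C or G was not counted, so the capitals need not mark every element. The motif is its own reverse complement, so a search of 1 strand covers both. MDM2, SESN1 and FDXR each had at least 1 match, and BTG2, ZMAT3, TP53I3 and XPC had none in these windows. Of all 35116 windows, 392 (1.12%) held a match, and of 27305 genes with a window, 373 (1.37%) did. A match describes the letters only. For MDM2, SESN1 and FDXR the first window with a match is printed in full, with its first matched 20 bases in capitals. Each is read 5′ to 3′ on the strand of its gene.
MDM2: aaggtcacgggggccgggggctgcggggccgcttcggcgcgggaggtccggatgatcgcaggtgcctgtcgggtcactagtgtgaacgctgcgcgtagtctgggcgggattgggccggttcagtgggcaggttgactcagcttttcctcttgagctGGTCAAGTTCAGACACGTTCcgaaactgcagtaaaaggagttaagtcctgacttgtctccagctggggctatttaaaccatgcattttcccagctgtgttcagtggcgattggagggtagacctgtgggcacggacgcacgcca
SESN1: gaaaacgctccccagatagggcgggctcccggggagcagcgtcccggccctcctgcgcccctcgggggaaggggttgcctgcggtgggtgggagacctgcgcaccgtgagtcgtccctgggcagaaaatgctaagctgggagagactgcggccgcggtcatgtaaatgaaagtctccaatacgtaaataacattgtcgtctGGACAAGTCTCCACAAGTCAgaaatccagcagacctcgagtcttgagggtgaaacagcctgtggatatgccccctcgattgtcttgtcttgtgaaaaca
FDXR: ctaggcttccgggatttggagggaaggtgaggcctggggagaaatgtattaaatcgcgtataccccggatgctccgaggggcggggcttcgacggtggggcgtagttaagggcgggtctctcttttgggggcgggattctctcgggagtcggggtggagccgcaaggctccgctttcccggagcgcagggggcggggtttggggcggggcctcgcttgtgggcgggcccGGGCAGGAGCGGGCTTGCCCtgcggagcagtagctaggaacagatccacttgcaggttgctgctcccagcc
The MDM2 window is chr12:68808767-68809066 on the plus strand, inside the annotated span of the gene (68808176 to 68850686), and its match lies 94 to 75 bases before the start, with 2 mismatches. The SESN1 window is chr6:109008939-109009238 on the minus strand, also inside the gene's span (108986437 to 109094819). Its match lies 49 to 30 bases before the start, with 3 mismatches. The FDXR window is chr17:74872945-74873244 on the minus strand and covers the upstream end of the gene's span (74862497 to 74873031). Its match lies 21 to 2 bases before the start, with 3 mismatches.

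The 9 genes did not move as a block after YES1 knockdown. In MDA-MB-231, MDM2 and TP53INP1 rose, TP53I3 and ZMAT3 fell, and 5 were not called. In SUM159PT, TP53I3, TP53INP1, BTG2 and FDXR fell, none rose, and 5 were not called. Without SUM159PT siNS replicate 1, ZMAT3 and SESN1 were called lower too, making 6. With all libraries and total counts as the scaling, ZMAT3, SESN1 and XPC were called lower too, making 7. In MDA-MB-231 the total-count scaling also added XPC to the genes called lower, making 3. TP53I3 was the only one of the 9 that passed the test in the same direction in both lines, and TP53INP1 passed it in opposite directions. A gene was called when its adjusted p in edgeR's quasi-likelihood test was under 0.05. Over all genes tested, 52.4% of 14319 were called in MDA-MB-231 (24.9% higher and 27.5% lower) and 36.8% of 14469 in SUM159PT (17.7% higher and 19.0% lower). Against that background, 4 of 9 genes called in either line is not a result about these genes as a set. The median log2 fold change of the 9 was -0.16 in MDA-MB-231, beside 0.00 over all genes, and -0.27 in SUM159PT, beside -0.03.

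**Figure D1:**
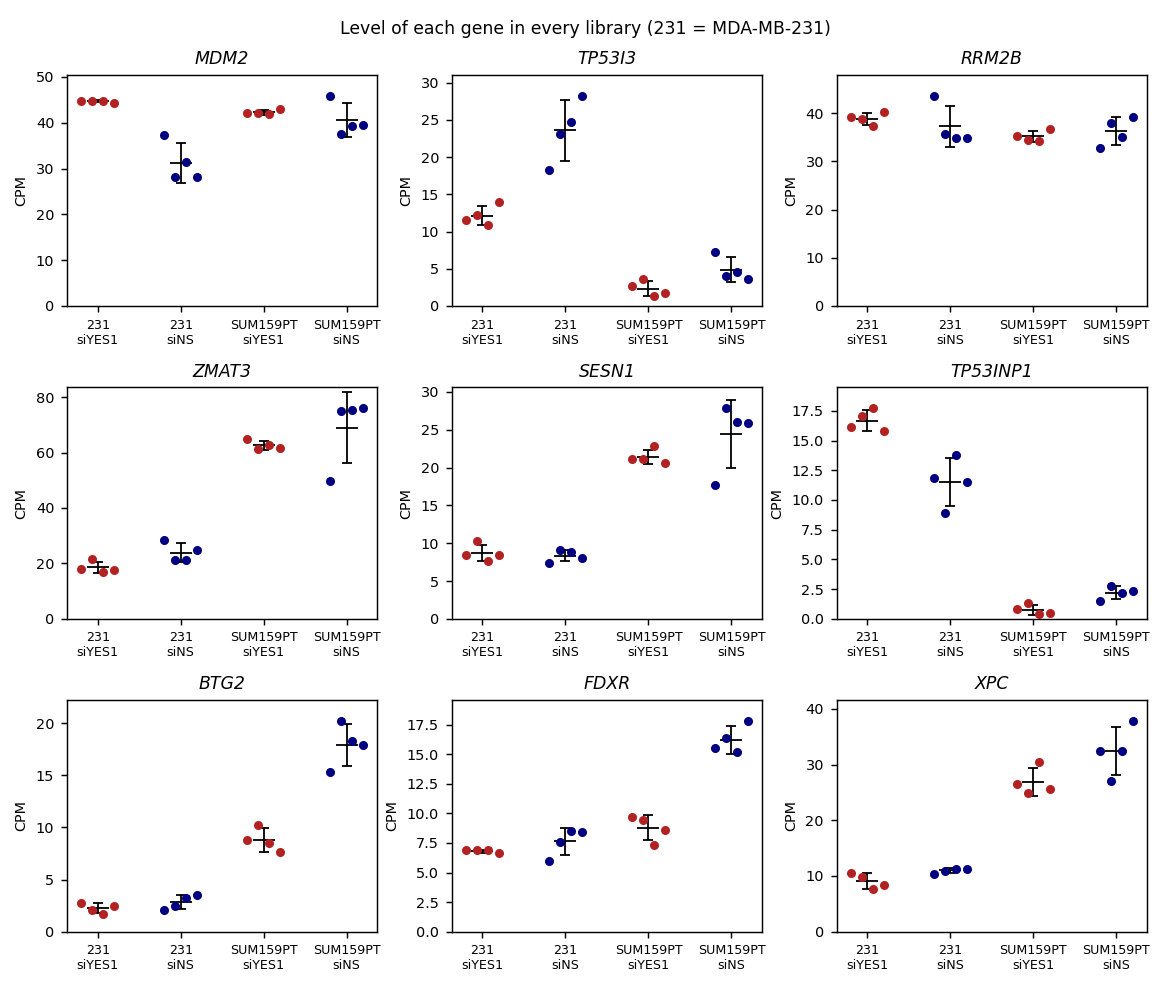
Level of each of the 9 genes in CPM (linear axis from 0), with points for the 4 libraries of each group, siYES1 in red left of siNS in dark blue, and bars for the mean ± SD. MDM2 sits at 44.3 to 44.9 CPM in MDA-MB-231 with siYES1, above all 4 siNS libraries, and BTG2 and FDXR separate in SUM159PT.

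MDM2 rose in MDA-MB-231 and did not pass the test in SUM159PT. In MDA-MB-231 it stood at 44.8, 44.9, 44.8 and 44.3 CPM with siYES1, against 37.4, 28.1, 31.4 and 28.1 CPM with siNS. The siYES1 libraries were nearly equal to each other and all above the siNS libraries, for a log2 fold change of 0.51 ± 0.09 (SE; adjusted p = 0.000232, edgeR). In SUM159PT it stood at 42.2, 42.1, 41.9 and 42.9 CPM with siYES1, against 45.9, 37.6, 39.3 and 39.5 CPM with siNS. Here the groups overlapped through siNS replicate 1 alone. Its log2 fold change was 0.06 with a 95% interval of -0.14 to 0.26, and 0.11 without siNS replicate 1 (edgeR adjusted p = 0.659 and 0.297). Scaled by total counts it was -0.12, so no direction is given for MDM2 in SUM159PT. In bulk libraries such as these, fewer cells expressing a gene and less RNA per cell cannot be told apart.

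MDM4, the relative of MDM2 that binds and inhibits p53 without degrading it, was called where MDM2 was. In MDA-MB-231 it averaged 22.9 ± 0.857 CPM with siYES1 and 17.2 ± 0.659 CPM with siNS (SD, n = 4 each), 0.41 ± 0.09 apart on the log2 scale (edgeR adjusted p = 0.000797). In SUM159PT it averaged 26.2 ± 2.39 CPM with siYES1 and 24.5 ± 1.52 CPM with siNS, a log2 fold change of 0.09 with a 95% interval of -0.14 to 0.33 (edgeR adjusted p = 0.543).

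BTG2, an antiproliferative protein that recruits the CCR4-NOT deadenylase to messenger RNAs, fell in SUM159PT. It stood at 8.83, 10.3, 8.47 and 7.61 CPM with siYES1, against 15.3, 20.2, 18.3 and 17.9 CPM with siNS. Every siYES1 library was below every siNS library, and the log2 fold change was -1.03 ± 0.15 (adjusted p = 0.000143, edgeR). In MDA-MB-231 BTG2 was low throughout, at 2.73, 2.04, 1.69 and 2.51 CPM with siYES1 and 2.10, 2.43, 3.21 and 3.55 CPM with siNS, which rest on 27 to 69 counts. These groups overlapped, and the log2 fold change of -0.33 had a 95% interval of -0.80 to 0.15 (edgeR adjusted p = 0.239).

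ZMAT3, a zinc finger protein that binds RNA, fell in MDA-MB-231. It stood at 18.0, 21.6, 17.0 and 17.7 CPM with siYES1, against 28.3, 21.1, 21.2 and 24.8 CPM with siNS. The groups overlapped through siYES1 replicate 2. Its change was -0.36 ± 0.11 on the log2 scale (edgeR adjusted p = 0.0139), and without siYES1 replicate 3 it was -0.32 and no longer called (adjusted p = 0.0526). In SUM159PT, ZMAT3 stood at 64.8, 61.1, 62.6 and 61.8 CPM with siYES1, against 49.8, 75.1, 75.3 and 75.9 CPM with siNS. One siNS library, replicate 1, lay below all siYES1 libraries and the other 3 above them. On the log2 scale it changed by -0.14 with all libraries (adjusted p = 0.393) and -0.28 without siNS replicate 1 (adjusted p = 0.00277), both by edgeR. That library thus turned the call, and so did total-count scaling, which called ZMAT3 lower with all libraries.

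TP53INP1, a stress-induced protein linked to autophagy and cell death, moved in opposite directions in the 2 lines. In MDA-MB-231 it stood at 16.2, 17.0, 17.7 and 15.8 CPM with siYES1, against 11.9, 8.93, 13.8 and 11.5 CPM with siNS. All siYES1 libraries were higher, by 0.53 ± 0.12 on the log2 scale (edgeR adjusted p = 0.00152). Fitted together with the SUM159PT libraries the value was 0.48 and just missed the threshold (adjusted p = 0.0606). In SUM159PT the gene was close to the lower limit of detection, at 0.802, 1.30, 0.423 and 0.499 CPM with siYES1, against 1.49, 2.78, 2.20 and 2.30 CPM with siNS. Those levels rest on 8 to 24 counts per siYES1 library and 26 to 48 counts per siNS library. All siYES1 libraries were lower, and the log2 fold change was -1.53 ± 0.44 (edgeR adjusted p = 0.0145).

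TP53I3, a quinone oxidoreductase-like enzyme linked to oxidative stress and apoptosis, fell in both lines. In MDA-MB-231 it stood at 11.5, 12.2, 10.9 and 13.9 CPM with siYES1, against 18.3, 23.1, 24.7 and 28.3 CPM with siNS. The groups did not overlap, and the log2 fold change was -0.96 ± 0.13 (adjusted p = 9.96e-06, edgeR). In SUM159PT it stood at 2.67, 3.59, 1.32 and 1.68 CPM with siYES1, against 7.28, 4.08, 4.54 and 3.64 CPM with siNS. The groups just failed to touch, with siYES1 replicate 2 and siNS replicate 4 nearly equal. On the log2 scale the change was -1.08 ± 0.34 (edgeR adjusted p = 0.0246). It was -0.88 and not called without siYES1 replicate 3 (adjusted p = 0.0666), and -0.94 and not called without siYES1 replicate 4 (adjusted p = 0.0738).

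FDXR, the mitochondrial reductase that passes electrons from NADPH to ferredoxin, fell in SUM159PT. It stood at 9.68, 9.46, 7.36 and 8.61 CPM with siYES1, against 15.5, 16.4, 15.2 and 17.8 CPM with siNS. The groups were well apart, with a log2 fold change of -0.89 ± 0.14 (adjusted p = 0.000339, edgeR). In MDA-MB-231 it stood at 6.87, 6.88, 6.88 and 6.63 CPM with siYES1, within the siNS range of 6.02 to 8.53 CPM. The log2 fold change was -0.16, with a 95% interval of -0.45 to 0.13 (edgeR adjusted p = 0.338).

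SESN1, a sestrin that restrains the growth kinase complex mTORC1, was not called in either line with all libraries. The exception was total-count scaling, which called it lower in SUM159PT. In SUM159PT it stood at 21.2, 21.1, 22.8 and 20.7 CPM with siYES1, against 17.8, 27.8, 26.1 and 25.9 CPM with siNS. As for ZMAT3, siNS replicate 1 lay below all siYES1 libraries and the other 3 above them. Its log2 fold change was -0.19 with all libraries (edgeR adjusted p = 0.319) and -0.32 without siNS replicate 1, which was called (adjusted p = 0.0184). In MDA-MB-231, SESN1 ranged from 7.69 to 10.3 CPM with siYES1 and from 7.43 to 9.04 CPM with siNS, and its log2 fold change of 0.06 had a 95% interval of -0.21 to 0.33.

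Neither repair gene was called. RRM2B is the p53-inducible small subunit of ribonucleotide reductase, which makes the building blocks of DNA. It averaged 38.8 ± 1.21 CPM with siYES1 and 37.2 ± 4.29 CPM with siNS in MDA-MB-231. In SUM159PT it averaged 35.2 ± 1.17 CPM with siYES1 and 36.2 ± 2.86 CPM with siNS (SD, n = 4 each). The 95% interval of its log2 fold change was -0.13 to 0.25 in MDA-MB-231 and -0.25 to 0.16 in SUM159PT. XPC, which recognises DNA damage in nucleotide excision repair, averaged 9.11 ± 1.35 CPM with siYES1 and 11.0 ± 0.448 CPM with siNS in MDA-MB-231. In SUM159PT it averaged 26.9 ± 2.54 CPM with siYES1 and 32.4 ± 4.35 CPM with siNS. Its log2 fold change was -0.27 ± 0.12 in both lines (edgeR adjusted p = 0.0733 in MDA-MB-231 and 0.0951 in SUM159PT). In MDA-MB-231 it was called, at -0.35, without siYES1 replicate 1 (edgeR adjusted p = 0.0384), and in SUM159PT, at -0.34, without siNS replicate 2 (edgeR adjusted p = 0.0352). Total-count scaling called it in both lines, at -0.32 in MDA-MB-231 and -0.44 in SUM159PT (edgeR adjusted p = 0.0387 and 0.0153). Of the exon bases of XPC, 23.8% are shared with an antisense gene, AC093495.1. The protein-coding genes AC090004.1 and LSM3, also on the opposite strand, share 8.61% and 6.63%. Because no source used here gives the strand setting of the counting, reads of XPC and of these genes there cannot be told apart. The same limit touches SESN1 (7.09% shared with AL390208.1), TP53I3 (3.46% with FAM228B) and MDM2 (5.91% with AC025423.4 and 1.00% with a protein-coding gene), all on the opposite strand. MDM2 also shares 3.30% with a pseudogene on its own strand, AC025423.2.

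The groups of siYES1 and siNS libraries did not overlap for 3 of the 9 genes in MDA-MB-231, MDM2, TP53INP1 and TP53I3, beside 47.1% of all genes tested. In SUM159PT they did not overlap for 4, BTG2, TP53INP1, TP53I3 and FDXR, beside 36.8% of all genes. Of the 9 genes, 6 (66.7%) had the same sign in both lines, as had 63.9% of the 12689 genes tested in both. The single gene called lower in both lines, TP53I3, is 11.1% of the 9, beside 11.0% of all genes. The single gene called in opposite directions, TP53INP1, is again 11.1%, beside 3.65% of all genes.

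**Figure D2:**
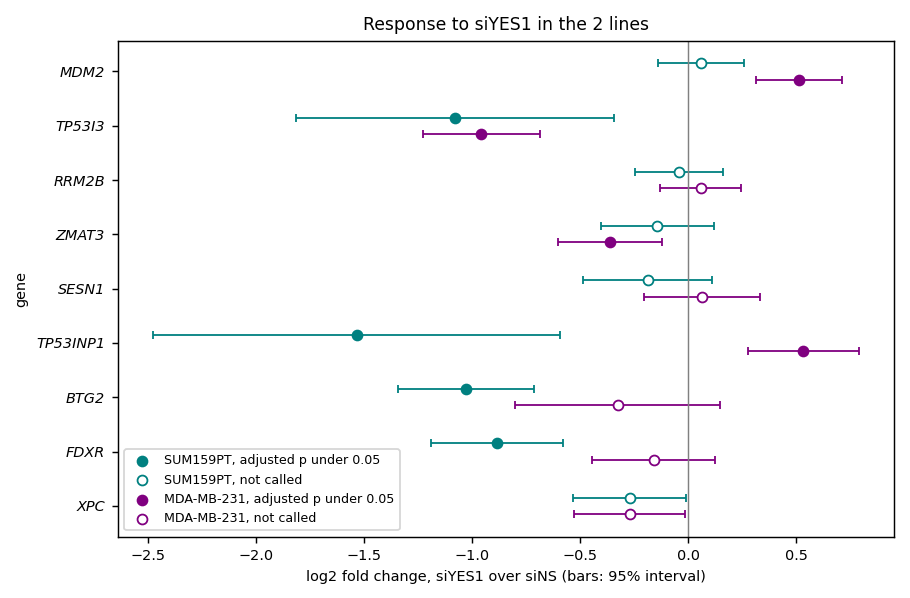
Log2 fold change of siYES1 over siNS for each of the 9 genes, SUM159PT (teal) above MDA-MB-231 (purple), with bars for the 95% interval and filled points for an adjusted p under 0.05. TP53INP1 lies at -1.53 in SUM159PT and at 0.53 in MDA-MB-231, while TP53I3 lies near -1 in both.

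Whether a gene responded differently in the 2 lines was tested directly, as the response of SUM159PT minus that of MDA-MB-231 in a fit of all 16 libraries. TP53INP1 and FDXR passed. For TP53INP1 the difference was -1.98 ± 0.35 (edgeR adjusted p = 0.00023). For FDXR it was -0.63 ± 0.20 (edgeR adjusted p = 0.0237), and it was not called without SUM159PT siYES1 replicate 3 (-0.55, adjusted p = 0.0514) or with no filter on low counts (-0.67, adjusted p = 0.0641). These are 2 of 9 genes, both with the lower response in SUM159PT, beside 24.3% of 16299 genes called in either direction and 8.85% called lower. The median difference was -0.15 over the 9 genes and 0.03 over all genes.

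The other 7 genes did not pass this test, and for a pair of them the outcome turned on the processing. For MDM2 the difference was -0.36 (95% interval -0.65 to -0.07, edgeR adjusted p = 0.0641). It was called at -0.42 with RLE scaling (adjusted p = 0.0307), by DESeq2 (adjusted p = 0.0121) and at -0.46 without MDA-MB-231 siNS replicate 1 (adjusted p = 0.00845), and also without SUM159PT siNS replicate 1 (-0.36, adjusted p = 0.0494) or replicate 2 (-0.39, adjusted p = 0.0467). The MDM2 difference was called with a filter at a mean of 1 CPM too. For BTG2 it was -0.61 (95% interval -1.16 to -0.05, edgeR adjusted p = 0.106), and -0.74 without SUM159PT siNS replicate 1 (adjusted p = 0.0443). For TP53I3, which fell in both lines, the difference was -0.03 with an interval of -0.69 to 0.64. RRM2B, SESN1, XPC and ZMAT3 had differences of 0.00, -0.15, 0.10 and 0.32. The total-count scaling, which moved the median difference of all genes to -0.19, called 4 of the 9 genes lower: MDM2, TP53INP1, BTG2 and FDXR.

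Without the knockdown, 8 of the 9 genes stood at different levels in the 2 lines. These levels come from 1 scaling over all 16 libraries. BTG2 averaged 18.8 ± 2.16 CPM in SUM159PT with siNS and 2.70 ± 0.641 CPM in MDA-MB-231 with siNS (SD, n = 4 each), a log2 difference of 2.80 ± 0.18 (SE) and 6.97-fold on the linear scale. XPC, SESN1, ZMAT3, FDXR and MDM2 were also higher in SUM159PT, with log2 differences of 1.69, 1.68, 1.66, 1.22 and 0.50. TP53INP1 and TP53I3 were lower in SUM159PT, by log2 differences of -2.26 and -2.14. TP53I3 averaged 5.12 ± 1.71 CPM in SUM159PT with siNS and 22.6 ± 3.93 CPM in MDA-MB-231 with siNS. RRM2B was the one gene not called, at 0.09 with a 95% interval of -0.11 to 0.29. In all, 6 of the 9 were called higher and 2 lower, and the groups did not overlap for 8, beside 77.0% of all 16299 genes called, 38.0% higher, 39.0% lower and 66.8% with groups that did not overlap. The lines were deposited in separate tables, so line and any batch between the tables cannot be told apart. The siNS libraries used here are those of the response tests.

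**Figure D3:**
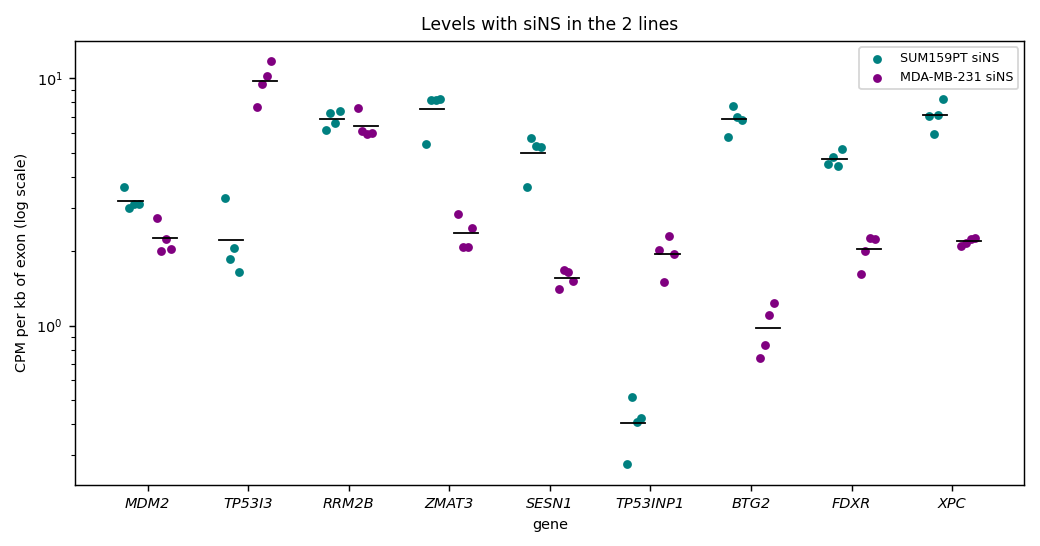
Levels of the 9 genes with siNS in CPM per kb of exon (log axis), SUM159PT in teal left of MDA-MB-231 in purple, with points for the 4 libraries of each line and a bar for their mean. TP53I3 and TP53INP1 are lower in SUM159PT, RRM2B overlaps, and the other 6 are higher.

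Divided by exon length, so that genes can be set against each other, the order of the levels differed between the lines. Exon length counts every annotated exon of a gene, from 2312 bases for TP53I3 to 13284 for MDM2. It is not the length of the transcript made, so the order of genes within a line depends on the annotation too. In MDA-MB-231 with siNS, TP53I3 led at 9.77 ± 1.70 CPM per kb, followed by RRM2B at 6.43 ± 0.792 CPM per kb, and these 2 did not overlap each other or the rest. ZMAT3, MDM2, XPC, FDXR, TP53INP1 and SESN1 followed between 2.37 and 1.56 CPM per kb, each overlapping the next, and BTG2 was lowest at 0.980 CPM per kb. With siYES1, RRM2B led at 6.45 CPM per kb and TP53I3 came next at 4.84 CPM per kb, without overlap. In SUM159PT with siNS, ZMAT3, XPC, RRM2B and BTG2 led between 7.50 and 6.82 CPM per kb and overlapped in turn. TP53INP1 was lowest there, at 0.405 ± 0.0995 CPM per kb. With siYES1 BTG2 stood at 3.44 CPM per kb in SUM159PT, level with MDM2 at 3.43 CPM per kb, and TP53INP1 at 0.144 CPM per kb.

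A wider set of 45 genes known as p53 targets, listed by role, also moved both ways. In MDA-MB-231, 41 of them were tested, 16 rose and 11 fell, beside 24.9% of all genes called higher and 27.5% lower, and the median change was 0.08 (log2). In SUM159PT, 40 were tested, 18 rose and 4 fell, beside 17.7% of all genes called higher and 19.0% lower, with a median of 0.21. The SUM159PT count depended on scaling: with total counts 10 rose and 6 fell, and the median over all genes shifted to -0.20. It depended on single libraries too, since 11 rose without siYES1 replicate 4, 12 without siNS replicate 4, and 13 without siNS replicate 3, siYES1 replicate 1 or siYES1 replicate 2. The direct test of the difference called 10 of 41 higher in SUM159PT and 0 lower (edgeR), where an unadjusted p under 0.05 gave 16 higher and 3 lower. Over all genes that test called 24.3% in either direction, 15.4% higher and 8.85% lower. The share of these targets called in either direction is thus near the background, whereas their edgeR calls were all higher. The split by direction depended on the processing: the test called 7 higher and 6 lower with total counts, 9 higher and 2 lower by DESeq2 and 9 higher and 2 lower without SUM159PT siNS replicate 1.

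**Figure D4:**
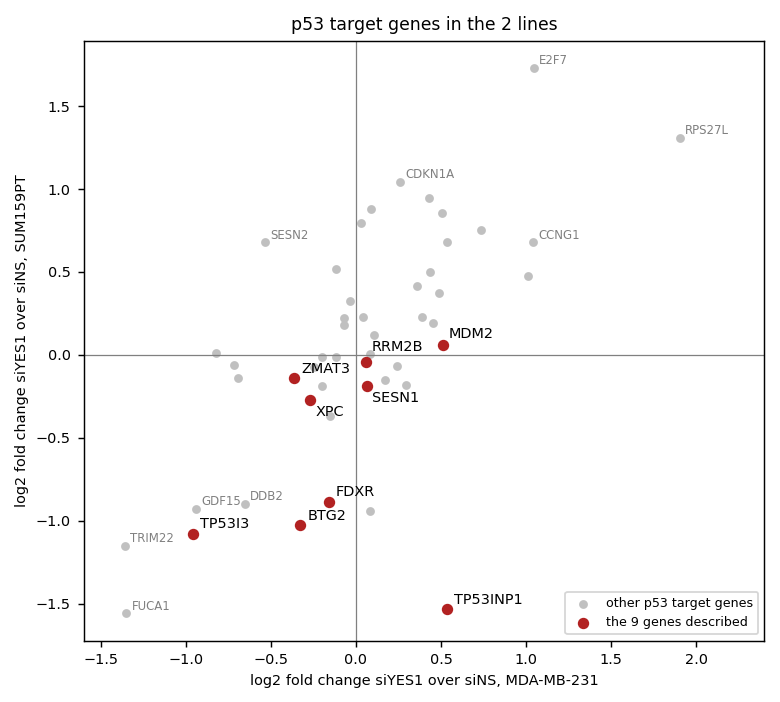
Log2 fold change of siYES1 over siNS in MDA-MB-231 (horizontal) and SUM159PT (vertical), with the 9 genes described in red and the other p53 targets tested in both lines in grey. CDKN1A, E2F7 and RPS27L lie in the upper right and FUCA1, TRIM22, GDF15 and TP53I3 in the lower left.

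Among the cell cycle arrest targets, 5 of 7 rose in SUM159PT, beside 17.7% of all genes. DESeq2 and total-count scaling each called 4 of the 7 higher there. None of the 7 fell there by edgeR or DESeq2, beside 19.0% of all genes called lower, nor had any an unadjusted p under 0.05 with a lower level. In MDA-MB-231, 3 of the 7 rose and 1 fell, beside 24.9% and 27.5% of all genes, and only 1 rose there in the fit of all 16 libraries. CDKN1A, the inhibitor p21, averaged 222 ± 15.5 CPM with siYES1 and 108 ± 16.7 CPM with siNS in SUM159PT (SD, n = 4 each), and it ranged from 147 to 151 CPM with siYES1 and from 111 to 136 CPM with siNS in MDA-MB-231. Its response was 1.04 (log2) in SUM159PT and 0.26 in MDA-MB-231, and the difference of 0.88 passed the test (edgeR adjusted p = 5.22e-05). In the fit of all 16 libraries the MDA-MB-231 value of CDKN1A was 0.20 and not called (edgeR adjusted p = 0.106). E2F7, a repressor of E2F targets, rose by 1.73 (log2) in SUM159PT and by 1.05 in MDA-MB-231. BTG2, itself an arrest gene, went the other way in SUM159PT.

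In the remaining roles, several genes passed the test in the same direction in both lines. RPS27L, a ribosomal protein relative, rose by 1.90 (log2) in MDA-MB-231 and by 1.31 in SUM159PT. CCNG1, a cyclin that acts with a phosphatase on MDM2, rose by 1.04 in MDA-MB-231 and by 0.68 in SUM159PT. FUCA1, a lysosomal fucosidase, fell by 1.35 in MDA-MB-231 and by 1.56 in SUM159PT. The secreted stress factor GDF15 changed by -0.94 in MDA-MB-231 and -0.93 in SUM159PT. TRIM22, an antiviral ubiquitin ligase, changed by -1.36 in MDA-MB-231 and -1.15 in SUM159PT, where the call was lost without siYES1 replicate 1 (edgeR adjusted p = 0.0522). DDB2, which works upstream of XPC in damage recognition, changed by -0.65 in MDA-MB-231 and -0.90 in SUM159PT. Of the cell death targets, 4 rose and 4 fell of 12 in MDA-MB-231, and 3 rose and 0 fell of 11 in SUM159PT by edgeR and by DESeq2, with 4 higher and 0 lower at an unadjusted p under 0.05. Of the redox and metabolism targets, 2 rose and 2 fell of 7 in MDA-MB-231, and 3 rose and 1 fell of 7 in SUM159PT. The 3 became 1 with total counts, without siYES1 replicate 2 and without siYES1 replicate 4, and the 2 that rose in MDA-MB-231 became 1 in the fit of all 16 libraries. These small counts are to be read against the same shares of all genes, 24.9% higher and 27.5% lower in MDA-MB-231 and 17.7% higher and 19.0% lower in SUM159PT.

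Upstream of p53, 6 of 20 tested regulators rose and 2 fell in MDA-MB-231, beside 24.9% and 27.5% of all genes. In SUM159PT 5 rose and 2 fell, beside 17.7% and 19.0% of all genes. Total-count scaling gave 2 higher and 3 lower there, and leaving out siNS replicate 1 gave 7 and 3. ATM, the kinase that signals DNA breaks, rose in both lines, by 0.63 (log2) in MDA-MB-231 and by 0.49 in SUM159PT, or 0.32 there with total counts. ATR, the kinase of stalled forks, was not called in either, at 0.14 in MDA-MB-231 and -0.27 in SUM159PT, although without siNS replicate 1 of MDA-MB-231 its value in that line was 0.24 and called (edgeR adjusted p = 0.013). The SUM159PT value of ATR rested on siNS replicate 1 of that line, and without it was -0.01 (edgeR adjusted p = 0.956). The checkpoint kinases CHEK1 and CHEK2 rose by 0.39 and 0.86 in MDA-MB-231. In SUM159PT CHEK1 had a log2 fold change of 0.03 and CHEK2 of 0.24, neither called, and CHEK2 was called at 0.35 without siNS replicate 1 (edgeR adjusted p = 0.0157). CDKN2A, which encodes the MDM2 inhibitor ARF, had 0 counts in all 16 libraries. Taken alone, 0 counts in 1 library allow an expected level of up to 3 counts, and all 16 together allow less for a shared level.

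Paralogs and protein partners of the 9 genes also moved in both directions. Of 16 tested, 5 rose and 5 fell in MDA-MB-231, beside 24.9% and 27.5% of all genes. In SUM159PT 6 rose and 2 fell, beside 17.7% and 19.0% of all genes. There 2 rose and 4 fell with total counts, 7 rose and 4 fell without siNS replicate 1, and 3 rose and 1 fell without siYES1 replicate 2. Leaving out siNS replicate 2 or 4, or siYES1 replicate 1, 3 or 4, also gave 1 lower. RRM1, the large subunit with which RRM2B works, rose by 0.88 (log2) in MDA-MB-231 and by 0.46 in SUM159PT, where total counts gave 0.29 and no call (edgeR adjusted p = 0.0859). RRM2, the small subunit of dividing cells, rose by 0.96 in MDA-MB-231. In SUM159PT its level was 67.2, 70.1, 71.1 and 72.6 CPM with siYES1, against 78.5, 26.7, 35.4 and 30.2 CPM with siNS. The log2 fold change of RRM2 there was 0.72 with all libraries (edgeR adjusted p = 0.0457) and 1.18 without siNS replicate 1, and it was not called when any one of the other 7 libraries was left out (0.56 to 0.74).

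The sestrins divided. SESN3 fell in both lines, by 1.21 (log2) in MDA-MB-231 and by 1.64 in SUM159PT. SESN2 averaged 57.2 ± 3.51 CPM with siYES1 and 35.7 ± 13.4 CPM with siNS in SUM159PT, and 14.0 ± 0.629 CPM with siYES1 and 20.3 ± 1.06 CPM with siNS in MDA-MB-231 (SD, n = 4 each). The log2 fold change of SESN2 was 0.68 in SUM159PT (edgeR adjusted p = 0.0236) and -0.53 in MDA-MB-231, and the difference of 1.31 passed the test (edgeR adjusted p = 0.000652). The SUM159PT call of SESN2 was lost with total counts (adjusted p = 0.0573) and without siNS replicate 4 or siYES1 replicate 1, 2 or 4 (adjusted p = 0.0527 to 0.069).

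Among the relatives of BTG2, BTG1 and TOB1 fell in MDA-MB-231, by 0.56 and 0.51 on the log2 scale, where BTG2 was not called. In SUM159PT, BTG1 had a log2 fold change of -0.22 and TOB1 of -0.23, neither called with all libraries, and both were called without siNS replicate 1, at -0.45 (adjusted p = 0.000931) and -0.29 (adjusted p = 0.0221) by edgeR. BTG3 was not called (0.18 in MDA-MB-231 and 0.31 in SUM159PT), nor was TOB2. BTG3 in SUM159PT was near the threshold (edgeR adjusted p = 0.0508) and was called without siNS replicate 1 or 2 or siYES1 replicate 4 (adjusted p = 0.0202 to 0.0283). TP53INP2, the relative of TP53INP1, fell in both lines, by 0.28 in MDA-MB-231 and 0.29 in SUM159PT. The SUM159PT call of TP53INP2 (edgeR adjusted p = 0.04) was lost without any one of 6 of the 8 libraries.

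FDX1, a ferredoxin that FDXR reduces, rose by 0.26 in MDA-MB-231, lost in the fit of all 16 libraries (0.21, edgeR adjusted p = 0.215), and had a log2 fold change of -0.22 in SUM159PT, not called. FDX2, the other ferredoxin, was too low to test. RAD23B and CETN2, partners of XPC, were not called in either line. CRYZ and VAT1, relatives of TP53I3 in the quinone oxidoreductase family, rose in SUM159PT by 0.52 and 0.62 and were not called in MDA-MB-231, at -0.13 and 0.00. The differences, 0.75 for CRYZ and 0.72 for VAT1, passed the test (edgeR adjusted p = 0.000305 and 0.00228), whereas TP53I3 fell in both lines.

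The genes whose levels followed MDM2 most closely were none of these. Ranked by the mean over the lines of Pearson's r with MDM2 over 8 libraries each, among 9610 genes at 5 CPM or more in both lines, the first 5 were NDC1 (0.98), NUP155 (0.97), USP40 (0.96), MCM8 (0.96) and TFDP1 (0.96). NDC1 and NUP155 are parts of the nuclear pore, USP40 a ubiquitin protease, MCM8 a helicase of DNA repair, and TFDP1 the partner of E2F factors. The libraries share their siRNA groups, so any gene that moved with the knockdown shares some of this pattern. In SUM159PT, MDM2 was not called, and it ranged from 37.6 to 45.9 CPM with siNS and from 41.9 to 42.9 CPM with siYES1. The 45.9 CPM came from siNS replicate 1, the library that stood apart, so r in SUM159PT leans on that library. The ranking was not repeated without it. Of the 9 genes, RRM2B ranked 5392, XPC 7371, SESN1 7716, FDXR 8159 and ZMAT3 9147. BTG2, TP53I3 and TP53INP1 were below 5 CPM in 1 line and were not ranked.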

How the data were processed

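Polyadenylated RNA of 16 libraries was sequenced. The deposited values are raw counts per gene, made by the authors. Per the submitters' processing notes, HISAT2 2.0.5 and the genome build hg38 served for alignment and featureCounts 1.5.0-p3 for counting. No source used here gives the annotation release or the strand setting. Gene names are those of GENCODE 29, which held all 58735 identifiers. From the counts, TMM-scaled CPM were computed, and genes passing filterByExpr were tested with edgeR 4.0.16 (R 4.3.3) by quasi-likelihood, with Benjamini-Hochberg adjustment over all genes tested and a threshold of 0.05. Each line was fitted alone on its 8 libraries. The difference between lines and the siNS levels came from a fit of all 16. Alternatives used DESeq2 1.42.0, limma 3.58.1 voom, other scalings and filters, a replicate block, a joint fit and leaving out each library. No pair of libraries agreed within sampling noise (chi-square per degree of freedom at least 2.21). The fits were also run on counts simulated from their own model with independent libraries, and the outcome is not reported here. That check cannot speak to technical replicates or to the library that stood apart.

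The 9 genes, the gene lists and the tests were chosen with earlier results of these data known. Beyond the 9, the rule named YES1, the tested paralogs and partners, MDM4, CHEK1, CHEK2, ATM, ATR, CDKN1A and CDKN2A. It also named, per line, the 3 rising and 3 falling list genes with the largest change at 5 CPM or more and groups that did not overlap, and the 5 genes most like MDM2. Values of p53 itself and of 1 gene among the paralogs and partners are not reported here, though the counts over that list include the gene.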

Additional observations from a re-analysis of the deposited data

Results flagged for a closer look

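Of 152 groups of 4 libraries examined, 11 had 1 library far from the other 3, where chance alone gives about 1 in 20. SUM159PT siNS replicate 1 was that library for 4 of them. There ZMAT3 stood at 49.8 CPM (others 75.1 to 75.9), FUCA1 at 23.4 CPM (others 28.5 to 29.3), RRM2 at 78.5 CPM (others 26.7 to 35.4) and ATR at 45.0 CPM (others 23.9 to 25.3). In MDA-MB-231 with siYES1, replicate 4 was lowest for MDM2 at 44.3 CPM (others 44.8 to 44.9), for FDXR at 6.63 CPM (others 6.87 to 6.88) and for ATM at 66.0 CPM (others 77.2 to 77.8), and replicate 3 was lowest for TOB2 at 48.2 CPM (others 53.3 to 54.1). For MDM2 and FDXR the 4 values are so close that a small gap suffices. In MDA-MB-231 with siNS, replicate 1 was highest for RRM2B at 43.6 CPM (others 34.8 to 35.6) and replicate 3 for MDM4 at 18.2 CPM (others 16.9). In SUM159PT with siYES1, replicate 2 was highest for TOB1 at 43.9 CPM (others 39.7 to 40.4).

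The response to siYES1 differed between the lines by the direct test for 9 of the genes named. Over all 16299 genes that test called 24.3%, with 15.4% higher and 8.85% lower in SUM159PT. Some of the 9 were named for a large change within a line, so their number is not a result about these genes as a set. As SUM159PT minus MDA-MB-231 on the log2 scale, with edgeR adjusted p, the differences were -1.98 for TP53INP1 (0.00023), -0.63 for FDXR (0.0237) and -0.66 for YES1 itself (0.00657). They were 0.78 for E2F7 (0.00052), 0.88 for CDKN1A (5.22e-05), 1.31 for SESN2 (0.000652), 0.75 for CRYZ (0.000305) and 0.72 for VAT1 (0.00228). For RAD23B the difference was 0.26 (0.0349), and it was 0.03 with total counts as the scaling (0.832) and 0.20 without SUM159PT siNS replicate 1 (0.0798). YES1 was reduced more in SUM159PT than in MDA-MB-231, and its part in the other differences was not tested.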

How the results depend on the processing

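Over all alternatives, 589 log2 values of the 9 genes kept their direction and side of the threshold, 17 became called, 6 lost the call and 18 changed sign. For the other named genes these numbers were 1026, 14, 43 and 21. Among counts of the 9 genes called, the joint fit gave 1 higher in MDA-MB-231, total counts gave 3 lower in MDA-MB-231, 7 lower in SUM159PT and 4 lower in the difference between lines, and no filter gave 1 lower in that difference. Leaving out single libraries gave 1 to 3 lower in MDA-MB-231 (1 without siYES1 replicate 3, 3 without siYES1 replicate 1) and 1 to 4 lower in the difference (4 without SUM159PT siNS replicate 1, 1 without SUM159PT siYES1 replicate 3). The causes were not tested.

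Sign changes concerned values not called with all libraries under the settings described above. In MDA-MB-231, TOB2 was -0.0347 with total counts and -0.0438 in the joint fit, and VAT1 was 0.00694 with RLE scaling, 0.0101 with no filter, 0.00698 by DESeq2 and 0.000598 by voom. In SUM159PT with total counts, MDM2 was -0.12, MDM4 -0.077, RAD23B -0.0917 and CHEK1 -0.14. RRM2B was 0.000331 there in the joint fit, and the XPC difference between lines was -0.13 with total counts. Leaving out single libraries, values crossed 0 in MDA-MB-231 for SESN1 (-0.026 to 0.12), TOB2 (-0.0214 to 0.0516) and VAT1 (-0.0466 to 0.0388), and in SUM159PT for BTG1 (-0.45 to 0.0208) and CHEK1 (-0.045 to 0.0859). The BTG1 value of -0.45 was itself called, so its range is not confined to values near 0. Values also crossed 0 in the difference between lines for TP53I3 (-0.31 to 0.17) and RRM2B (-0.11 to 0.036).

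Same-numbered libraries did not deviate together (r of -0.123 to 0.0877), so the numbers were not taken as pairs. With a replicate block, 7109 genes were called in MDA-MB-231, 4961 in SUM159PT, 3545 in the difference and 12367 between siNS groups, no call among the 9 genes changed, and VAT1 in MDA-MB-231 was 0.000304. Depth limits TP53INP1 in SUM159PT, at 8 to 48 counts.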
